A study of Mus musculus with 8 samples.

Results

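The transcripts described here are the 6 mRNAs of mouse mitochondrial DNA that encode subunits of respiratory complexes III, IV and V: mt-Cytb, mt-Co1, mt-Co2, mt-Co3, mt-Atp6 and mt-Atp8. They were chosen by symbol and are 6 of the 18395 genes in the count table, and all 6 passed the filter on low counts that left 13901 genes. RNA came from adipose tissue of KO mice, in which Kindlin-2 (gene Fermt2, an adaptor of integrin adhesions) had been removed from brown adipocytes, and of WT controls, with 4 libraries in each group. Mice of both groups had spent 6 h at 4 °C, so every library comes from cold-challenged tissue. The labels give neither the fat depot, the driver of the deletion nor the age of the mice, and do not say that replicates are separate animals. The spread between libraries, on which all p-values rest, may therefore be technical.

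Mitochondrial DNA is transcribed from both strands as long polycistronic RNAs, which are cut at the tRNAs that lie between most of the coding regions. The mRNAs so released are polyadenylated in the mitochondrion and translated there. mt-Cytb is cytochrome b of complex III, which passes electrons from ubiquinol to cytochrome c; mt-Co1, mt-Co2 and mt-Co3 form the core of complex IV, cytochrome c oxidase, which reduces oxygen. mt-Atp6 and mt-Atp8 are membrane subunits of complex V, the ATP synthase. In brown fat the proton gradient built by complexes I, III and IV is spent largely through the uncoupling protein UCP1 as heat, and ATP synthase is known to be scarce there relative to the respiratory chain.

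mt-Atp8 and mt-Atp6 are read in different frames from a single mRNA, and their coding regions overlap by 43 bases. The overlap is shown because reads from it can belong to either gene. It is in capitals in the whole mt-Atp8 sequence of 204 bases and in the first 120 of the 681 bases of mt-Atp6, both 5′ to 3′ from GENCODE M21 (GRCm38).
mt-Atp8: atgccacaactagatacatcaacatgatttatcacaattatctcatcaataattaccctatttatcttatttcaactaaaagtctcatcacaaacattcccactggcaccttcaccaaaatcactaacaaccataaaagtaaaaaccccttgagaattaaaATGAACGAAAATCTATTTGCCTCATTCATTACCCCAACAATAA
mt-Atp6: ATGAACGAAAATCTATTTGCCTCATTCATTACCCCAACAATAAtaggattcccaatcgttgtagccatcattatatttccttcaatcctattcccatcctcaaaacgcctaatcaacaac

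The ends of 5 coding regions are shown because the models stop at or within the stop codon, with no base to spare. The last 30 bases of each gene model are given with the bases of its stop codon in capitals. mt-Cytb and mt-Co3 end with a single T, 1 base past their last whole codon, and the stop is known to be completed by polyadenylation. The last base of mt-Atp6 is also the first base of mt-Co3.
mt-Cytb: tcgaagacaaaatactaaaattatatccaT
mt-Co1: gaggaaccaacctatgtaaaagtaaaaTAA
mt-Co2: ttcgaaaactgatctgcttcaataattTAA
mt-Co3: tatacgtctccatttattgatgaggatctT
mt-Atp6: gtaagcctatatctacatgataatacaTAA

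All 6 genes lie on the same strand. Of the 13 mitochondrial coding regions in genome order, mt-Co1, mt-Co2, mt-Atp8, mt-Atp6 and mt-Co3 are the third to the seventh, and mt-Cytb is the last. mt-Atp8, mt-Atp6 and mt-Co3 form a continuous run with no base between them.

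The library totals were 35734373 to 40927141 counts in KO and 33672272 to 43253559 counts in WT. Fermt2 had 192, 132, 173 and 174 CPM (counts scaled to a common library size by TMM, which trims extreme genes) in KO replicates 1 to 4, against 239, 235, 244 and 201 CPM in WT, and the groups did not overlap (edgeR adjusted p = 0.134). Adipocyte and brown adipocyte markers were detected in every library, with Ucp1 at 3258 ± 1158 CPM in KO and 5983 ± 645 CPM in WT (SD, n = 4). A pair of libraries was unlike the others: skeletal muscle markers took 3.48% of the counts of WT replicate 3, against at most 0.0274% in any other library, and T and NK cell markers summed to 209 CPM in KO replicate 2, against at most 40.7 CPM in any other library. Results are therefore also given for the 6 libraries without this pair. edgeR called 0 of the 13901 genes at an adjusted p under 0.05, although 2993 (21.5%) had an unadjusted p under 0.05 and DESeq2 called 1113. No member could therefore be called in the main comparison.

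Some of these mRNAs have nearly identical copies in the nuclear genome, which bears on how far their counts can be trusted. Annotated nuclear transcripts, searched in both directions, held 99.9% of the 100-base windows of mt-Co3. They held 99.5% of those of mt-Co2 and of mt-Atp6, and 30.8% of those of mt-Co1. No window of mt-Cytb was found in a nuclear transcript. The pseudogenes Gm28661 (681 bases), Gm10925 (678 bases) and Gm28437 (783 bases), neighbours on chromosome 1, match mt-Co2, mt-Atp6 and mt-Co3 over their whole length without a mismatch. mt-Atp8 has no annotated copy, but Gm10925 and Gm28661 are 233 bases apart with 0 annotated genes between them. In mitochondrial DNA the distance from mt-Co2 without its stop codon to mt-Atp6 is also 233 bases, and mt-Atp8 lies there. The sequence of that nuclear gap was not examined here. None of these pseudogenes was matched to a gene of the count table. How reads that match both places were counted is not given in the sources used here. The levels of mt-Co2, mt-Co3, mt-Atp6 and mt-Atp8 are therefore uncertain, and so in part is that of mt-Co1.

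Per kilobase of transcript, mt-Co1 was the most abundant of the 13 mitochondrial mRNAs, with 38163 ± 4002 CPM per kilobase in KO and 58935 ± 6330 in WT (SD, n = 4). mt-Cytb came next, with 26109 ± 2946 CPM per kilobase in KO and 44226 ± 3658 in WT. The ranges of this pair did not overlap within either group, and the mean over all 8 libraries was 1.38 times higher for mt-Co1.

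Among the members a wide gap followed, within which mt-Nd1, mt-Nd4, mt-Nd2 and mt-Nd6 of complex I lay. mt-Co3 had 3615 ± 981 CPM per kilobase in KO and 3756 ± 720 in WT, and its mean over all libraries was 9.54 times below that of mt-Cytb. mt-Co2 had 2058 ± 387 CPM per kilobase in KO and 4011 ± 1145 in WT, and mt-Atp6 had 1962 ± 1103 in KO and 3313 ± 272 in WT. The ranges of mt-Co3 and mt-Co2 overlapped in WT but not in KO, and those of mt-Co2 and mt-Atp6 overlapped in both groups, so the order of these neighbours is not settled. The members below this gap were mt-Co2, mt-Co3 and mt-Atp6, with nuclear copies over nearly their whole length, and mt-Atp8, with no window in an annotated copy. Over all 8 libraries, mt-Nd3 and mt-Nd4l, with 97.6% and 98.5% of their windows in copies, averaged 213 and 92.8 CPM per kilobase. mt-Nd4, with 60.8%, averaged 14315, and mt-Nd2, with 3.19%, averaged 10675. mt-Nd1, mt-Nd5 and mt-Nd6, with no 100-base window in a copy, averaged 20053, 2577 and 5091. The part of the copies in these levels was not tested.

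mt-Atp8 was lowest, with 42.6 ± 10.4 CPM per kilobase in KO and 187 ± 97.3 in WT, and ranked twelfth of the 13 mitochondrial mRNAs, above mt-Nd4l. Its mean lay 23.0 times below that of mt-Atp6, although both coding regions are known to share an mRNA. Its smallest count, 276 in KO replicate 1, has an exact Poisson interval of 244 to 311 (95%, counting error only).

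**Figure D1:**
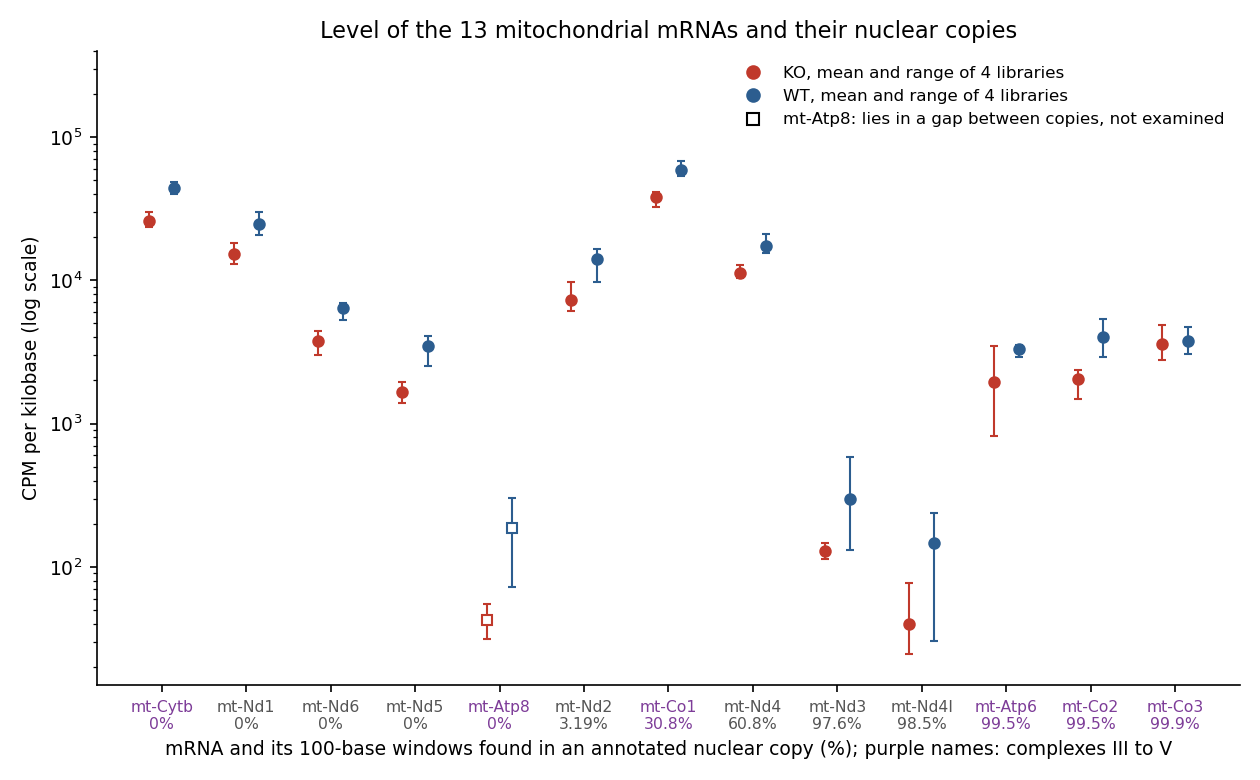
Mean level in CPM per kilobase (log scale) of the 13 mitochondrial mRNAs in KO and WT, with bars from the lowest to the highest of 4 libraries, ordered from left to right by the percentage of 100-base windows found in an annotated nuclear copy. mt-Cytb and mt-Co1, with 0% and 30.8% of their windows in a copy, average 26109 CPM per kilobase or more in each group. mt-Atp6, mt-Co2 and mt-Co3, with 99.5%, 99.5% and 99.9%, average 4011 or less. mt-Nd5 and mt-Atp8, with 0%, average 3502 or less.

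In the comparison of KO with WT, all 6 members had a lower mean level in KO libraries. Their median log2 fold change was -0.76, against 0.004 for all genes tested. With total library size as the scaling, which raised the median of all genes to 0.264, mt-Co3 was the only member with a positive value, 0.19, and relative to that median it was -0.07. In 4 of the 6 (mt-Cytb, mt-Co1, mt-Co2 and mt-Atp8) every KO library lay below every WT library, which was so for 7.56% of all genes tested. No member lay above WT in every KO library, as 5.8% of all genes did. The same 4 members had an unadjusted p under 0.05 with a lower level in KO, as had 11.1% of all genes. DESeq2 called these 4 lower, against 4.71% of the genes it tested, as did limma-voom with quality weights, against 3.62% of all genes. The 6-library comparison called mt-Atp8, against 1.5% of all genes. The 7 complex I mRNAs of mitochondrial DNA also all lay lower, with a median of -0.94 and a range from -1.86 to -0.61, and 5 of the 7 did not overlap between groups. The mitochondrial rRNAs mt-Rnr1 and mt-Rnr2 differed by -0.15 ± 0.21 and -0.21 ± 0.33 (SE, edgeR adjusted p = 0.698 and 0.723).

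**Figure D2:**
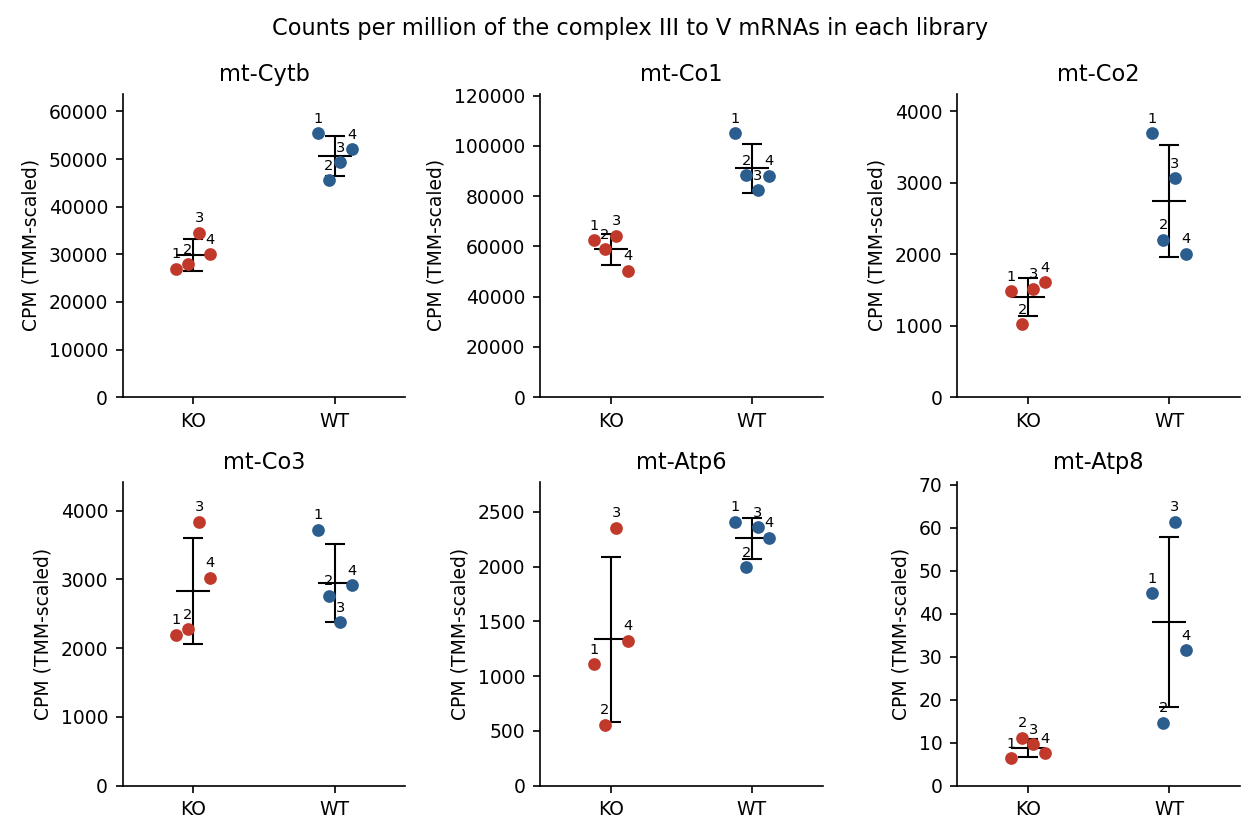
CPM (TMM-scaled) of the 6 mRNAs in each KO and WT library, with replicate numbers beside the points, and mean ± SD (n = 4) as lines. KO and WT points do not overlap for mt-Cytb, mt-Co1, mt-Co2 and mt-Atp8, and they overlap for mt-Co3 and mt-Atp6.

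For complex III, mt-Cytb (ENSMUSG00000064370) had 26972, 27932, 34550 and 30019 CPM in KO replicates 1 to 4, against 55443, 45540, 49384 and 52013 CPM in WT. The highest KO library was KO replicate 3 and the lowest WT library was WT replicate 2, and the groups did not overlap. The means were 29868 ± 3370 CPM in KO and 50595 ± 4184 CPM in WT (SD, n = 4), 41.0% lower in KO. The log2 difference was -0.76 ± 0.13 (SE; edgeR adjusted p = 0.0915), and in the 6-library comparison -0.74 ± 0.18 (edgeR adjusted p = 0.0610). Without KO replicate 2 alone it was -0.73 and was called (edgeR adjusted p = 0.0412), among 123 genes called lower there. DESeq2 gave an adjusted p of 3.80e-06. The call therefore depended on the test and on that library.

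For complex IV, mt-Co1 (ENSMUSG00000064351), the subunit that holds the oxygen-binding haem and copper centre, had 62410, 58881, 64246 and 50308 CPM in KO, against 105127, 88428, 82457 and 88208 CPM in WT. KO replicate 4 was lowest and WT replicate 1 highest, and the groups did not overlap. The means were 58961 ± 6183 CPM in KO and 91055 ± 9780 CPM in WT (SD, n = 4), 35.2% lower in KO. The difference on the log2 scale was -0.63 ± 0.14 (SE; edgeR adjusted p = 0.0981), -0.67 with 6 libraries (edgeR adjusted p = 0.0841), with a DESeq2 adjusted p of 0.000439.

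mt-Co2 (ENSMUSG00000064354) encodes the subunit that takes electrons from cytochrome c. It had 1480, 1019, 1519 and 1612 CPM in KO, against 3696, 2204, 3066 and 2010 CPM in WT. The WT libraries spread more widely than the KO libraries, with WT replicates 1 and 3 well above WT replicates 2 and 4, and KO replicate 2 was lowest of all. The means were 1408 ± 265 CPM in KO and 2744 ± 783 CPM in WT (SD, n = 4). On the log2 scale KO differed by -0.96 ± 0.23 (SE; edgeR adjusted p = 0.1005), and -0.78 with 6 libraries (edgeR adjusted p = 0.0863).

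mt-Co3 (ENSMUSG00000064358), the third core subunit, had the smallest difference of any member. It had 2194, 2274, 3841 and 3028 CPM in KO, against 3721, 2764, 2380 and 2914 CPM in WT. The groups overlapped across nearly their whole range, and KO replicate 3 was the highest of the 8 libraries. The means were 2834 ± 769 CPM in KO and 2945 ± 564 CPM in WT (SD, n = 4). On the log2 scale KO differed by -0.06 ± 0.21 (SE; edgeR adjusted p = 0.8997), with a 95% interval from -0.53 to 0.42. That interval overlapped those of mt-Cytb (-1.05 to -0.47), mt-Co1 (-0.93 to -0.32) and mt-Co2 (-1.47 to -0.46), and the differences between these genes were not tested in that fit. It was above 0 without KO replicate 1 (0.045), KO replicate 2 (0.037) or WT replicate 1 (0.077).

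For complex V, mt-Atp6 (ENSMUSG00000064357), the subunit that forms the proton channel beside the rotating ring, had 1109, 558, 2354 and 1324 CPM in KO, against 2410, 1994, 2358 and 2264 CPM in WT. KO replicates 1, 2 and 4 lay below all WT libraries, and KO replicate 3 lay within the WT range. The means were 1336 ± 751 CPM in KO and 2256 ± 185 CPM in WT (SD, n = 4). The highest library was 4.22 times the lowest in KO and 1.21 times in WT, the widest spread of any member in KO and the narrowest of any in WT. The log2 difference was -0.76 ± 0.36 (SE; edgeR adjusted p = 0.255). It was -1.19 without KO replicate 3 and -0.50 without KO replicate 2, the libraries with the highest and the lowest mt-Atp6 level in KO.

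mt-Atp8 (ENSMUSG00000064356), a short subunit at the base of the peripheral stalk, had 6.36, 11.1, 9.68 and 7.62 CPM in KO, against 44.8, 14.7, 61.4 and 31.5 CPM in WT. The groups did not overlap, but WT replicate 2 was close to KO replicate 2. The highest WT library was WT replicate 3, and it had 4.19 times the level of the lowest. The means were 8.70 ± 2.13 CPM in KO and 38.1 ± 19.9 CPM in WT (SD, n = 4). The log2 difference was -2.13 ± 0.41 (SE; edgeR adjusted p = 0.0920), and -1.94 ± 0.39 with 6 libraries, where it was called (edgeR adjusted p = 0.0475). It was the largest difference of any member and rested on the lowest counts.

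Read along the genome, the log2 fold changes were -0.63 for mt-Co1, -0.96 for mt-Co2, -2.13 for mt-Atp8, -0.76 for mt-Atp6 and -0.06 for mt-Co3. The 95% interval of mt-Atp8, from -3.05 to -1.21, did not overlap that of mt-Co3, from -0.53 to 0.42; the difference between them was not tested in that fit. With total library size as the only scaling, the median of all genes moved to 0.264, and the members stood at -0.77 (mt-Cytb), -0.63 (mt-Co1), -0.96 (mt-Co2), -0.07 (mt-Co3), -0.77 (mt-Atp6) and -2.12 (mt-Atp8) relative to it.

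**Figure D3:**
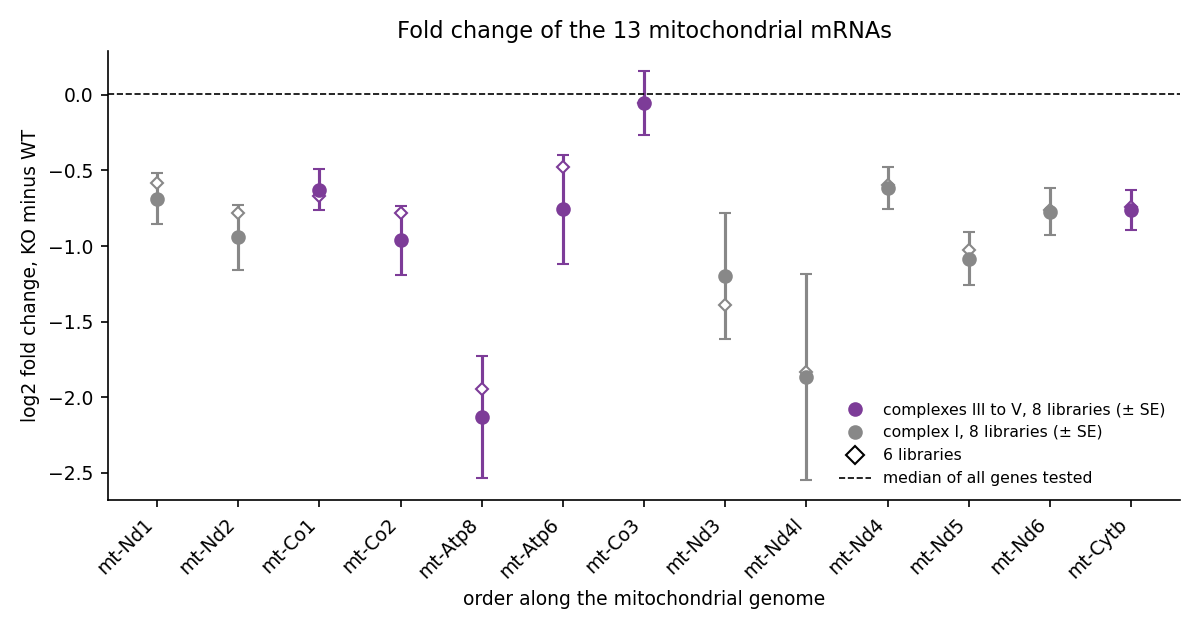
Log2 fold change of KO minus WT (edgeR, ± SE, 4 libraries in each group) of the 13 mitochondrial mRNAs in genome order, with complexes III to V in purple, complex I in grey and the 6-library values as open diamonds. mt-Atp8 at -2.13 and mt-Nd4l at -1.86 lie lowest and mt-Co3 at -0.06 lies at the dashed median of all genes.

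Summed, the 6 members took 10.9%, 9.92%, 11.2% and 9.34% of the counts in KO replicates 1 to 4, against 15.5%, 13.4%, 12.2% and 13.6% in WT. The highest KO library lay below the lowest WT library, and the means were 10.3% ± 0.839 in KO and 13.7% ± 1.37 in WT (SD, n = 4). mt-Co1 and mt-Cytb made up 92.7% to 95.7% of these counts in any library. The other 4 members took 0.608% ± 0.163 in KO and 0.728% ± 0.114 in WT, and there the groups overlapped.

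A share within the 13 mitochondrial mRNAs does not depend on how libraries are scaled. For each of the 13 the group means of the share were compared by an exact two-sided permutation test, whose smallest possible p is 0.0286, with Benjamini-Hochberg adjustment over the 13. mt-Co3 took 1.65%, 1.77%, 2.44% and 2.33% of the 13 in KO, against 1.45%, 1.38%, 1.11% and 1.35% in WT. All KO libraries lay above all WT libraries, and the exact permutation p was 0.0286, which after adjustment was 0.186. The mean share was 1.55 times higher in KO, at 2.05% ± 0.397 against 1.32% ± 0.151 in WT (SD, n = 4). mt-Nd5 of complex I separated in the other direction, with all KO libraries below all WT libraries. Its share was 2.19% ± 0.153 in KO and 2.88% ± 0.513 in WT (exact permutation p = 0.0286, adjusted 0.186). No other share of the 13 separated.

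mt-Cytb took 21.8% ± 1.19 of the 13 in KO and 22.9% ± 1.00 in WT (exact permutation p = 0.286, adjusted 0.464). mt-Co1 took 43.0% ± 3.87 in KO and 41.1% ± 2.42 in WT (exact permutation p = 0.400, adjusted 0.578). mt-Co2 took 1.03% ± 0.194 in KO and 1.23% ± 0.251 in WT, and mt-Atp6 took 0.945% ± 0.440 in KO and 1.02% ± 0.0662 in WT (adjusted exact permutation p = 0.464 and 0.777). For these 4 members the shares of KO and WT overlapped.

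mt-Atp8 took 0.00636% ± 0.00164 of the 13 in KO and 0.0170% ± 0.00881 in WT (exact permutation p = 0.0571, adjusted 0.248). Only WT replicate 2, at 0.00734%, fell within the KO range. Per 100 mt-Atp6 counts there were 0.574, 2.0, 0.411 and 0.575 mt-Atp8 counts in KO, against 1.86, 0.735, 2.61 and 1.39 in WT. KO replicate 2, with the lowest mt-Atp6 level, had the second highest ratio of the 8 libraries, while the other 3 KO libraries lay below all WT libraries. The mean log2 ratio differed by -1.05 between KO and WT (exact permutation p = 0.171), and by -1.54 without KO replicate 2 (exact permutation p = 0.0571).

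**Figure D4:**
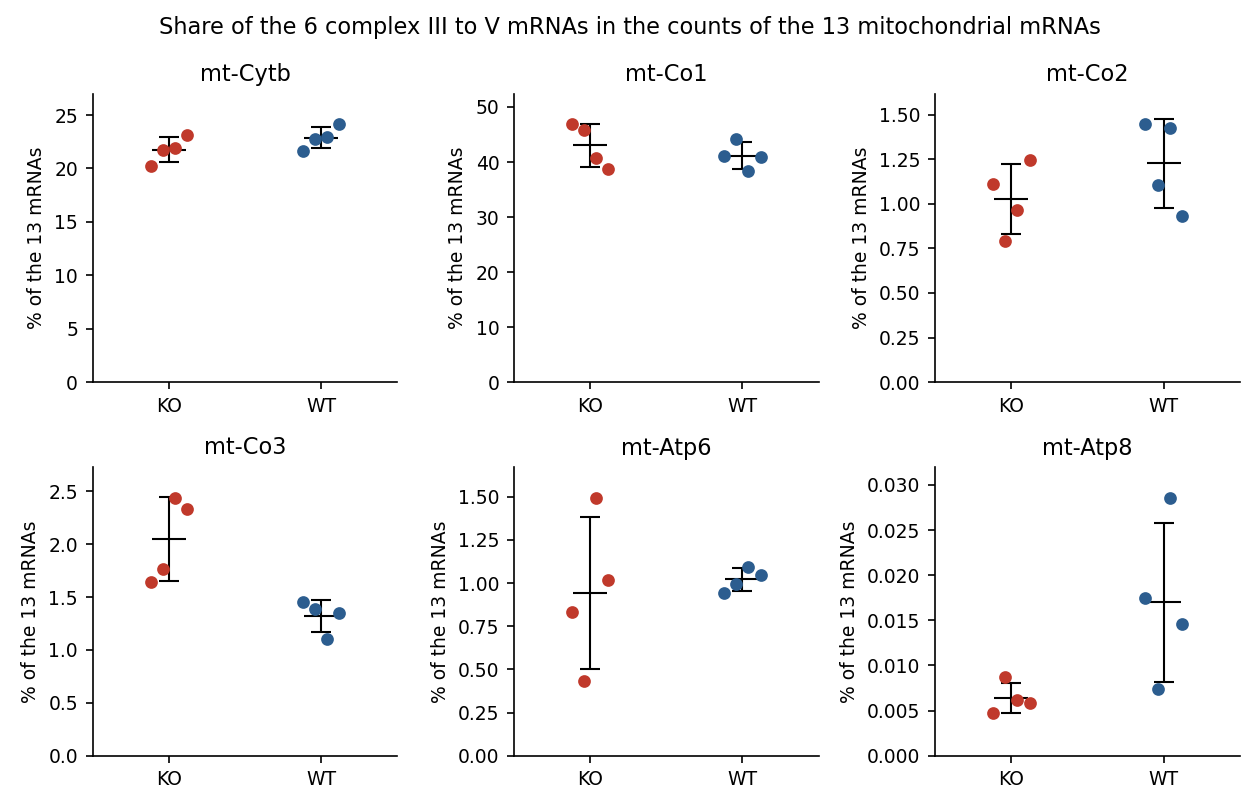
Share of the 6 mRNAs in the summed counts of the 13 mitochondrial mRNAs (%), for each KO and WT library, with mean ± SD (n = 4). KO lies above WT in every library for mt-Co3 (1.65% to 2.44% in KO, 1.11% to 1.45% in WT), and the groups overlap for the other 5.

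The likeness of profiles was measured as the root mean square difference of log2 CPM over the 8 libraries, each gene centred on its own mean. mt-Cytb was nearest to mt-Nd6 (0.0981), the only mitochondrial mRNA from the other strand, and mt-Co1 to mt-Nd4 (0.126). mt-Co2 was nearest to mt-Nd1 (0.211), mt-Co3 to mt-Nd4 (0.322), mt-Atp6 to mt-Nd2 (0.401) and mt-Atp8 to mt-Nd5 (0.651). mt-Cytb and mt-Co1 were 0.157 apart, whereas mt-Atp6 and mt-Atp8 had mt-Co2 as their nearest member at 0.437 and 0.760.

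Among genes not encoded in mitochondrial DNA, the 5 nearest to the mean profile of the members were Cpeb3 (0.154), Macrod2 (0.155), Tob1 (0.186), Mtm1 (0.187) and St3gal3 (0.199). The median over 13885 genes was 0.586. The members themselves lay 0.142 (mt-Cytb), 0.252 (mt-Co1), 0.204 (mt-Co2), 0.450 (mt-Co3), 0.386 (mt-Atp6) and 0.732 (mt-Atp8) from that mean profile. All 5 genes were thus nearer to the mean than any member except mt-Cytb, and the mean does not describe each member. Cpeb3 binds cytoplasmic polyadenylation elements of mRNAs, Tob1 is an antiproliferative protein that recruits deadenylases, Mtm1 is the phosphoinositide phosphatase myotubularin, Macrod2 removes ADP-ribose from proteins and St3gal3 is a sialyltransferase. Their log2 fold changes were -0.68 (Cpeb3), -0.68 (Macrod2), -1.06 (Tob1), -0.71 (Mtm1) and -0.70 (St3gal3). These genes were chosen for likeness to profiles that were lower in KO, so their lower level follows from the choice. The likeness is a description over 8 libraries that differ in group, and it carries no test.

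The respiratory complexes are built from mitochondrial and nuclear subunits, so the nuclear partners were counted beside the members. Of the 9 nuclear subunits of complex III, 8 lay lower in KO and 1 higher; the median was -0.31 on the log2 scale, and in 3 every KO library lay below every WT library (7.56% of all genes). None was called by edgeR, 4 had an unadjusted p under 0.05 (11.1% of all genes, lower in KO), 1 was called lower with 6 libraries (1.5%) and 2 by DESeq2 (4.71%). Uqcrc2, a core subunit, averaged 389 ± 86.1 CPM in KO and 670 ± 89.5 CPM in WT (SD, n = 4), a log2 difference of -0.79 ± 0.18 (SE), the size seen for mt-Cytb (edgeR adjusted p = 0.0981, and 0.0334 with 6 libraries). Uqcrc1, the other core subunit, differed by -0.46 ± 0.14, the Rieske iron-sulfur protein Uqcrfs1 by -0.37 ± 0.15 and the hinge protein Uqcrh by 0.01 ± 0.14 (edgeR adjusted p = 0.140, 0.200 and 0.968). Of 6 complex III assembly factors 5 lay lower, with a median of -0.27, and Uqcc1, which acts in the synthesis of cytochrome b, differed by -0.52 ± 0.14 (edgeR adjusted p = 0.118). Cycs, cytochrome c, averaged 490 ± 87.3 CPM in KO and 638 ± 45.2 CPM in WT, with overlapping groups (edgeR adjusted p = 0.191).

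For complex IV, 13 of the 14 nuclear subunits tested lay lower, but by little, with a median of -0.16 (0.09 with total library size as the scaling, and -0.17 relative to the median of all genes there). Of these 14 genes 2 lay below WT in every KO library and 1 had an unadjusted p under 0.05, close to the 7.56% and 11.1% of all genes, and 0 were called by edgeR, by DESeq2 or with 6 libraries. Cox7b differed by -0.35 ± 0.14 and Cox5a by -0.28 (edgeR adjusted p = 0.194 and 0.261), while Cox7a2l, which joins complexes III and IV in supercomplexes, differed by 0.00. Of 21 assembly factors 18 lay lower, with a median of -0.19, and 2 were called lower by DESeq2, against 4.71% of the genes it tested. Cox11, which delivers copper to the mt-Co1 protein, differed by -0.76 ± 0.23, and Taco1, known as a translational activator of mt-Co1, by -0.61 ± 0.20 (edgeR adjusted p = 0.134 and 0.156). Cox17, the copper chaperone, had the highest log2 fold change of these factors, 0.17, and was not called.

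For complex V, 14 of 18 nuclear subunits lay lower, with a median of -0.25 (-0.12 with 6 libraries and 0.01 with total library size as the scaling, or -0.26 relative to the median of all genes there). Of the 18, 5 lay below WT in every KO library (7.56% of all genes) and 1 was called by DESeq2, close to the 4.71% of all genes. Atp5g1, an isoform gene of the ring subunit, stood far from the rest at -2.54 ± 1.33, and at 0.11 with 6 libraries, and is named here because of that value. WT replicate 3, the library with the high skeletal muscle markers, had 230 CPM of Atp5g1. The remaining WT libraries had 5.92 to 10.9 CPM and the KO libraries 6.66 to 15.3 CPM, so the value rests on that library. Atp5b, the catalytic beta subunit, averaged 3906 ± 308 CPM in KO and 5435 ± 793 CPM in WT (SD, n = 4), a log2 difference of -0.48 ± 0.14 (SE; edgeR adjusted p = 0.131). Atp5a1 and Atp5c1, the alpha and gamma subunits, differed by -0.39 and -0.41, and the inhibitor Atpif1 by 0.30, none of them called. All 4 assembly factors lay lower, with a median of -0.40, led by Tmem70, which acts in assembly of the membrane ring, at -0.51 ± 0.14 (edgeR adjusted p = 0.122).

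Of 24 factors that transcribe, process or stabilise mitochondrial RNA, 23 lay lower, with a median of -0.26. In 6 of them every KO library lay below every WT library (7.56% of all genes), 9 had an unadjusted p under 0.05 (11.1% of all genes, lower in KO), 0 were called by edgeR and 3 by DESeq2 (4.71%). Grsf1, a protein of mitochondrial RNA granules, differed by -0.51 ± 0.12, Fastk, which is known for its role in mt-Nd6 mRNA stability, by -0.47 ± 0.13, and the rRNA methyltransferase Tfb1m by -0.75 ± 0.22 (edgeR adjusted p = 0.0992, 0.124 and 0.133). Tfam, which packages mitochondrial DNA and starts its transcription, averaged 30.8 ± 3.85 CPM in KO and 40.6 ± 4.79 CPM in WT (SD, n = 4), without overlap (log2 fold change -0.40 ± 0.13, edgeR adjusted p = 0.152). Ppargc1a, which drives the making of mitochondria, differed by -0.78 ± 0.29 (edgeR adjusted p = 0.187). With total library size as the scaling, under which the median of all genes was 0.264, the median was -0.05 for the nuclear subunits of complex III, -0.001 for the RNA factors and -0.51 for the members. Relative to that median they were -0.32, -0.27 and -0.77.

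**Figure D5:**
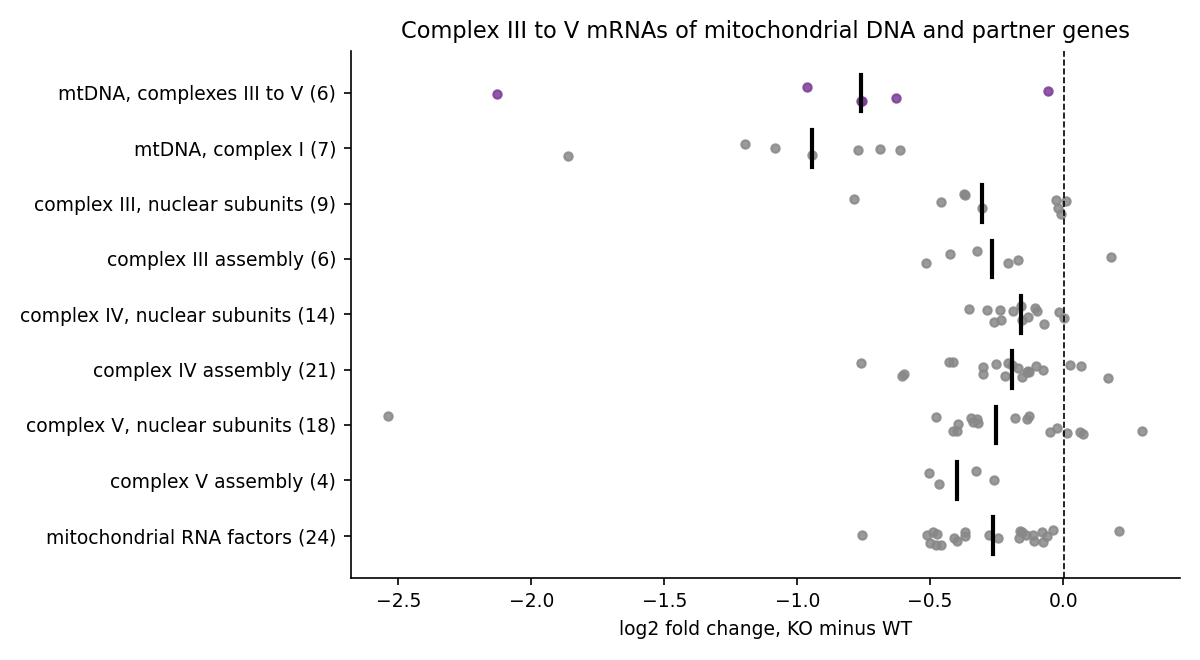
Log2 fold change of KO minus WT (edgeR, 8 libraries) of each gene in the groups of partner genes, with the number tested in brackets, the median as a vertical bar and the median of all genes as a dashed line. The single point at -2.54 is Atp5g1, whose value rests on WT replicate 3 and is 0.11 with 6 libraries. The medians of the mitochondrially encoded groups (-0.76 and -0.94) lie further below the dashed line than those of the nuclear groups (-0.40 to -0.16).

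Cell type markers were summed in each library. With all 8 libraries edgeR called 0 of 13901 genes, so it could call none of these lists. The 8 brown adipocyte markers, 7 of them lower with a median log2 fold change of -0.19, summed to 5112 to 8450 CPM in KO and 8672 to 10672 CPM in WT. As a percentage of all counts the groups overlapped, with 0.559% to 0.897% in KO and 0.757% to 1.01% in WT. Ucp1 made up 35.1% to 61.6% of the CPM sum, and without it the other 7 markers overlapped, at 3221 to 4229 CPM in KO and 3590 to 4341 CPM in WT. The 8 adipocyte markers, 7 lower, summed to 14680 to 18708 CPM in KO and 17917 to 21818 CPM in WT. Endothelial markers, 9 of 10 higher, summed to 1766 to 3104 CPM in KO and 1474 to 1995 CPM in WT, T and NK cell markers, 10 of 10 higher, to 20.8 to 209 CPM in KO and 3.84 to 34.0 CPM in WT. Macrophage markers, 10 of 10 higher, summed to 133 to 399 CPM in KO and 125 to 201 CPM in WT, with the 399 in KO replicate 2 and the next KO library at 206. Their median log2 fold change was 0.42, and 0.077 with 6 libraries. At an unadjusted edgeR p under 0.05, 7 endothelial, 6 T and NK cell and 0 macrophage markers were higher in KO (10.4% of all genes). At that threshold 4 adipocyte and 3 brown adipocyte markers were lower (11.1% of all genes). DESeq2 called 5 endothelial and 4 T and NK cell markers higher (511 of 12778 genes). It called 3 adipocyte and 2 brown adipocyte markers lower (4.71%). The sums of the adipocyte, endothelial, T and NK cell and macrophage markers all overlapped between groups. With 6 libraries edgeR called 5 endothelial markers higher (253 of 13901 genes). It called 1 adipocyte and 1 brown adipocyte marker lower there (1.5%). No brown adipocyte, adipocyte, endothelial, T and NK cell or macrophage marker was at 0 in any library. Fewer brown adipocytes and less mitochondrial RNA per cell cannot be told apart in whole tissue, and the part of cell make-up in the members' differences was not tested. Skeletal muscle markers summed to 8.98 to 251 CPM in KO and 4.14 to 39831 CPM in WT, with Myh2 at 0 in at least 1 library. WT replicate 3, which held that highest sum, had the highest mt-Atp8 level of all libraries and the lowest mt-Co1 and mt-Co3 levels of WT. Without it and KO replicate 2, log2 fold changes were -0.74 for mt-Cytb, -0.67 for mt-Co1, -0.78 for mt-Co2, -0.05 for mt-Co3, -0.48 for mt-Atp6 and -1.94 for mt-Atp8.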

How the data were processed

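The authors deposited whole-number counts per gene for 8 libraries, from poly(A)-selected RNA; per the labels' protocols, second strands were marked with dUTP. The submitters' processing notes name the build GRCm39, and for the aligner, counter and annotation nothing is given in the sources used here. Symbols came from GENCODE M21 and matched 18321 of 18395 genes. Members, gene lists and the rules for named genes were chosen with earlier results of these data known. Named were the members, Fermt2, Ucp1, Ppargc1a and Tfam, in each partner list genes among the 3 with the smallest p and the 1 with the largest rise, and the 5 nearest profiles.

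Genes kept by filterByExpr were tested with edgeR 4.0.16 (R 4.3.3, TMM, robust quasi-likelihood F test, group as the only term), with Benjamini-Hochberg adjustment over 13901 genes and a threshold of 0.05. Standard errors and 95% intervals were derived from the fold change, the F statistic and its p. The biological coefficient of variation was 0.361, and 0.226 with 6 libraries. Levels per kilobase use transcript lengths of GENCODE M21 (GRCm38), in which mRNA windows were searched among nuclear transcripts. Log2 CPM for profiles had a prior count of 2. Shares and ratios were compared by exact permutation tests. Alternatives were DESeq2 1.42.0, limma-voom (limma 3.58.1), other scalings and filters, a replicate block and left-out libraries.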

Additional observations from a re-analysis of the deposited data

Results flagged for a closer look

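In 6 of 60 groups of 4 libraries checked, a single library lay further from the others than Dixon's 95% critical value allows; chance gives about 1 in 20 groups. Among the members this was so for the mt-Atp8 counts per 100 mt-Atp6 counts in KO, where KO replicate 2 had 2.0 and the other 3 KO libraries 0.411 to 0.575. Among the complex I mRNAs of mitochondrial DNA, mt-Nd4l reached 22.7 CPM in KO replicate 1, the highest KO library, and mt-Nd4 reached 28820 CPM in WT replicate 1, the highest WT library. The skeletal muscle marker sum was 251 CPM in KO replicate 2 and 39831 CPM in WT replicate 3. The T and NK cell marker sum was 209 CPM in KO replicate 2.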

How the results depend on the processing

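The number of genes called, 0 by edgeR with 8 libraries, was 1113 with DESeq2, 911 with limma-voom and quality weights, 882 with total library size (858 higher and 24 lower in KO), 461 with 6 libraries, 249 at an adjusted p under 0.10 and 1 with no filter on low counts. Leaving out 1 library gave 0 to 361 calls, of which the 361 came with KO replicate 2 left out, 3 with WT replicate 4 and 1 with WT replicate 1 left out. mt-Cytb, mt-Co1, mt-Co2, mt-Atp6 and mt-Atp8 lay lower in KO under all 20 alternatives, and their calls varied. DESeq2 called mt-Cytb (-0.77), mt-Co1 (-0.63), mt-Co2 (-0.97) and mt-Atp8 (-2.13). Limma-voom with quality weights called the same 4 (-0.68, -0.65, -0.72 and -1.77). Total library size called mt-Cytb (-0.50) and mt-Atp8 (-1.86), and 6 libraries called mt-Atp8 (-1.94). Leaving out 1 library gave -0.85 to -0.71 for mt-Cytb, whose adjusted p ranged from 0.0412 to 0.238, and -2.40 to -1.80 for mt-Atp8.

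mt-Co3 turned to 0.12 with limma-voom and quality weights, to 0.19 with total library size (-0.07 relative to the median of all genes, which that scaling moved to 0.264), and ranged from -0.25 to 0.077 with 1 library left out. The share of mt-Atp6 in the 13 mRNAs, at -0.077 percentage points (KO minus WT), was 0.12 with 6 libraries and ranged from -0.26 to 0.094 with 1 library left out. Medians of nuclear subunits turned to 0.09 (complex IV) and 0.00833 (complex V) with total library size, and relative to the median of all genes were -0.17 and -0.26. Beyond that shift of all genes, the causes were not tested.

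Same-numbered libraries did not deviate together (r = -0.05, 0.04, -0.13 and 0.22 for replicates 1 to 4), and 1 of 4 KO libraries correlated best with its own number. With a replicate block 0 genes were called, and log2 fold changes were -0.76, -0.63, -0.94, -0.08, -0.93 and -2.01 for mt-Cytb, mt-Co1, mt-Co2, mt-Co3, mt-Atp6 and mt-Atp8. mt-Atp8 had the fewest counts, with 276 to 499 in KO and 468 to 1835 in WT.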
